A study of Homo sapiens with 6 samples.

Results

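The proteasome genes examined were the GENCODE protein-coding genes, placed on hg19, whose symbols begin with PSMA, PSMB, PSMC, PSMD, PSME, PSMF or PSMG followed by a digit. The rule matched 50 of 20098 genes. 5 of them are induced by interferon (PSMB8, PSMB9, PSMB10, PSME1 and PSME2) and 41 encode constitutive subunits, regulators or assembly factors. The other 4 symbols were set apart, since PSMA8 is a testis subunit, PSMB11 a thymus subunit, and PSMC3IP and PSME3IP1 encode partner proteins that are not subunits.

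Histone marks were mapped by ChIP-seq in HSC3 cells, an established oral squamous cell carcinoma (OSCC) line, 72 h after transfection with a control siRNA (siCONT) or an siRNA against the long noncoding RNA DLEU1 (siDLEU1). The study used 1 siRNA sequence against DLEU1 for this assay, named siDLEU1-2, and asked how depletion of DLEU1 changes H3K27 acetylation (H3K27ac) and H3K4 trimethylation (H3K4me3). There was 1 library for each siRNA and mark, so no difference given here has a replicate check or a p-value, and the siRNA and the library cannot be told apart. The level of DLEU1 RNA is not a measurement of this assay. 10 squamous epithelial marker genes all had H3K27ac in siCONT cells and 9 of them in siDLEU1 cells. By contrast, 1 of 5 leukocyte and 0 of 2 hepatocyte markers had it in either, and the endothelial markers CDH5 and VWF did not. PECAM1, also on the endothelial list, was not among the annotated genes used.

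The proteasome degrades proteins tagged with ubiquitin. Its core particle (20S) is a barrel of alpha and beta rings, and its regulatory particle (19S) holds the ATPases that unfold substrates and the non-ATPase subunits that bind and remove ubiquitin. In cells exposed to interferon the catalytic beta subunits PSMB5, PSMB6 and PSMB7 are replaced in newly made particles by PSMB8, PSMB9 and PSMB10, which favours peptides suited to MHC class I molecules. PSME1 and PSME2 form the PA28 activator that caps such immunoproteasomes. H3K27ac marks active promoters and enhancers, and H3K4me3 marks promoters.

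The sequences at the transcription start sites (TSSs) of the 5 induced genes and of their constitutive catalytic counterparts are shown because 4 of the 5 induced genes hold the same interferon-response letters there and the counterparts do not. Each runs 5′ to 3′ on the gene's strand from 160 bases before the canonical TSS, 180 bases in GRCh37. Capitals mark an interferon-stimulated response element (ISRE, here GAAA, any pair of bases, GAAA, on either strand) or a gamma-activated site (GAS, TTCNNNGAA).
PSMB8 (chr6:32811805-32811984, minus strand): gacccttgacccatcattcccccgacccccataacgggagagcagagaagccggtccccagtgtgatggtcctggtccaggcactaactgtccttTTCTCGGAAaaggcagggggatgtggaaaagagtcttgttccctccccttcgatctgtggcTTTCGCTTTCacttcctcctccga
PSMB9 (chr6:32821809-32821988, plus strand): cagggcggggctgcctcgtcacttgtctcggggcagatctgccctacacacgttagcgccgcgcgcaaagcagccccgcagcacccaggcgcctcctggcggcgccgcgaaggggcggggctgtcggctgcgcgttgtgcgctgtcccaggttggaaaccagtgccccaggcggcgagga
PSMB10 (chr16:67970734-67970913, minus strand): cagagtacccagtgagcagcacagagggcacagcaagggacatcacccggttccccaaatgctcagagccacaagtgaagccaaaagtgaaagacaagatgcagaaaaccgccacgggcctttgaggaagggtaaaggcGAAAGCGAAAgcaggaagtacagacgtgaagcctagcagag
PSME1 (chr14:24605243-24605422, plus strand): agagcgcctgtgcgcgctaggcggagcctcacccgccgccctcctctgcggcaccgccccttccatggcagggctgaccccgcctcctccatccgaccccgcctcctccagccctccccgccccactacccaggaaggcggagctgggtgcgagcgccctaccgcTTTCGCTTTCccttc
PSME2 (chr14:24615800-24615979, minus strand): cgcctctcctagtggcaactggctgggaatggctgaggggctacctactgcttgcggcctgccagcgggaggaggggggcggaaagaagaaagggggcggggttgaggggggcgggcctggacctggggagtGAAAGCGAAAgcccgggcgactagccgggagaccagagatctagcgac
PSMB5 (chr14:23504090-23504269, minus strand): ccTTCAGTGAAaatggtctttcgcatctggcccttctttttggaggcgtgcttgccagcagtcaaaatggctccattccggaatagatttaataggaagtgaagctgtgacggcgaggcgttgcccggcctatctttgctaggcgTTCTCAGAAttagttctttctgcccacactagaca
PSMB6 (chr17:4699299-4699478, plus strand): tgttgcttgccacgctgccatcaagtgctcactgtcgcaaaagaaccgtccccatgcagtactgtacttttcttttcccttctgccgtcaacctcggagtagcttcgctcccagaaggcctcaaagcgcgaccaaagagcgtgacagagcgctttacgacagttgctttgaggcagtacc
PSMB7 (chr9:127177702-127177881, minus strand): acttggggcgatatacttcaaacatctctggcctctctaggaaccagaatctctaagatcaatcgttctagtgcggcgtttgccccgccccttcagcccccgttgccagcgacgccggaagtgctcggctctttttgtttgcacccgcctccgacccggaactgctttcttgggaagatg

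Over 300 bases around each TSS (250 before it and 50 from it on), the ISRE letters were found at 4 of the 5 induced genes (PSMB8, PSMB10, PSME1 and PSME2), at 2 of 41 constitutive genes (PSMB4 and PSMG4) and at 3.32% of all 20098 protein-coding promoters. The 4 induced promoters held the same 10 letters, GAAAGCGAAA read on one strand or the other, which 33 of all promoters (0.164%) held, PSMG4 among them. Counted with the TSS as position 0, these letters lay at positions -4 to 5 in PSMB8, -21 to -12 in PSMB10, 5 to 14 in PSME1 and -28 to -19 in PSME2. PSMB9 had no match in its window, and neither did PSMB5, PSMB6 or PSMB7. GAS letters were found at 1 of 5 induced genes, PSMB8, at 5 of 41 constitutive genes and at 6.49% of all promoters. The core of the antioxidant response element, TGACNNNGC, was found at 3 of 5 induced genes (PSMB9, PSME1 and PSME2), at 11 of 41 constitutive genes (26.8%) and at 14.1% of all promoters. CCAAT was found at 1 of 5 and 18 of 41 genes against 35.9% of all promoters, and TATAAA at 0 of 5 and 4 of 41 against 9.82%. The members' median GC content over the 300 bases was 62.0% for the constitutive genes, 68.0% for the induced genes and 63.7% for all promoters. A match describes the letters only.

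All 46 proteasome genes carried both marks in both siRNAs. A gene was counted as marked where a called region overlapped the window of 1 kb before to 1 kb after an annotated TSS, and by that rule 61.5% of all protein-coding genes had H3K27ac and 61.2% had H3K4me3 in siCONT cells. No proteasome gene lost a mark in siDLEU1 cells, against 5.14% of marked genes for H3K27ac and 3.07% for H3K4me3. The H3K27ac lists held 19705 (siCONT) and 17672 (siDLEU1) regions, and the H3K4me3 lists 58582 and 56943. The total number of reads is unknown. The number of fragments stacked at each summit was solved for with the fold and p that MACS2 gave, and its median per list was between 41 and 75.

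Because fold enrichment is not comparable between lists, genes were compared by the rank, as a percentile of its own list, of the region with the highest fold near a TSS, where 100 is the strongest region and 0 no region. For H3K27ac the constitutive genes ranked high, with a median percentile of 88.4 in siCONT and 85.8 in siDLEU1 cells, above the medians of 71.4 and 67.2 for all marked genes. The induced genes ranked at a median of 87.1 and 95.7. The 95.7 is the region at PSMB8, which also stands for PSMB9 in siDLEU1 cells because PSMB9 has an annotated TSS beside PSMB8, and with only the canonical TSS of each gene the medians were 87.1 and 90.9. For H3K4me3 the medians were 92.3 and 91.7 for constitutive genes, 97.9 and 95.3 for induced genes, and 83.2 and 84.6 for all marked genes. In siCONT cells, for which the protocols name no interferon treatment, the H3K27ac percentiles of the induced genes (75.6 to 90.8) lay within the range of the constitutive genes (53.0 to 99.9).

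**Figure D1:**
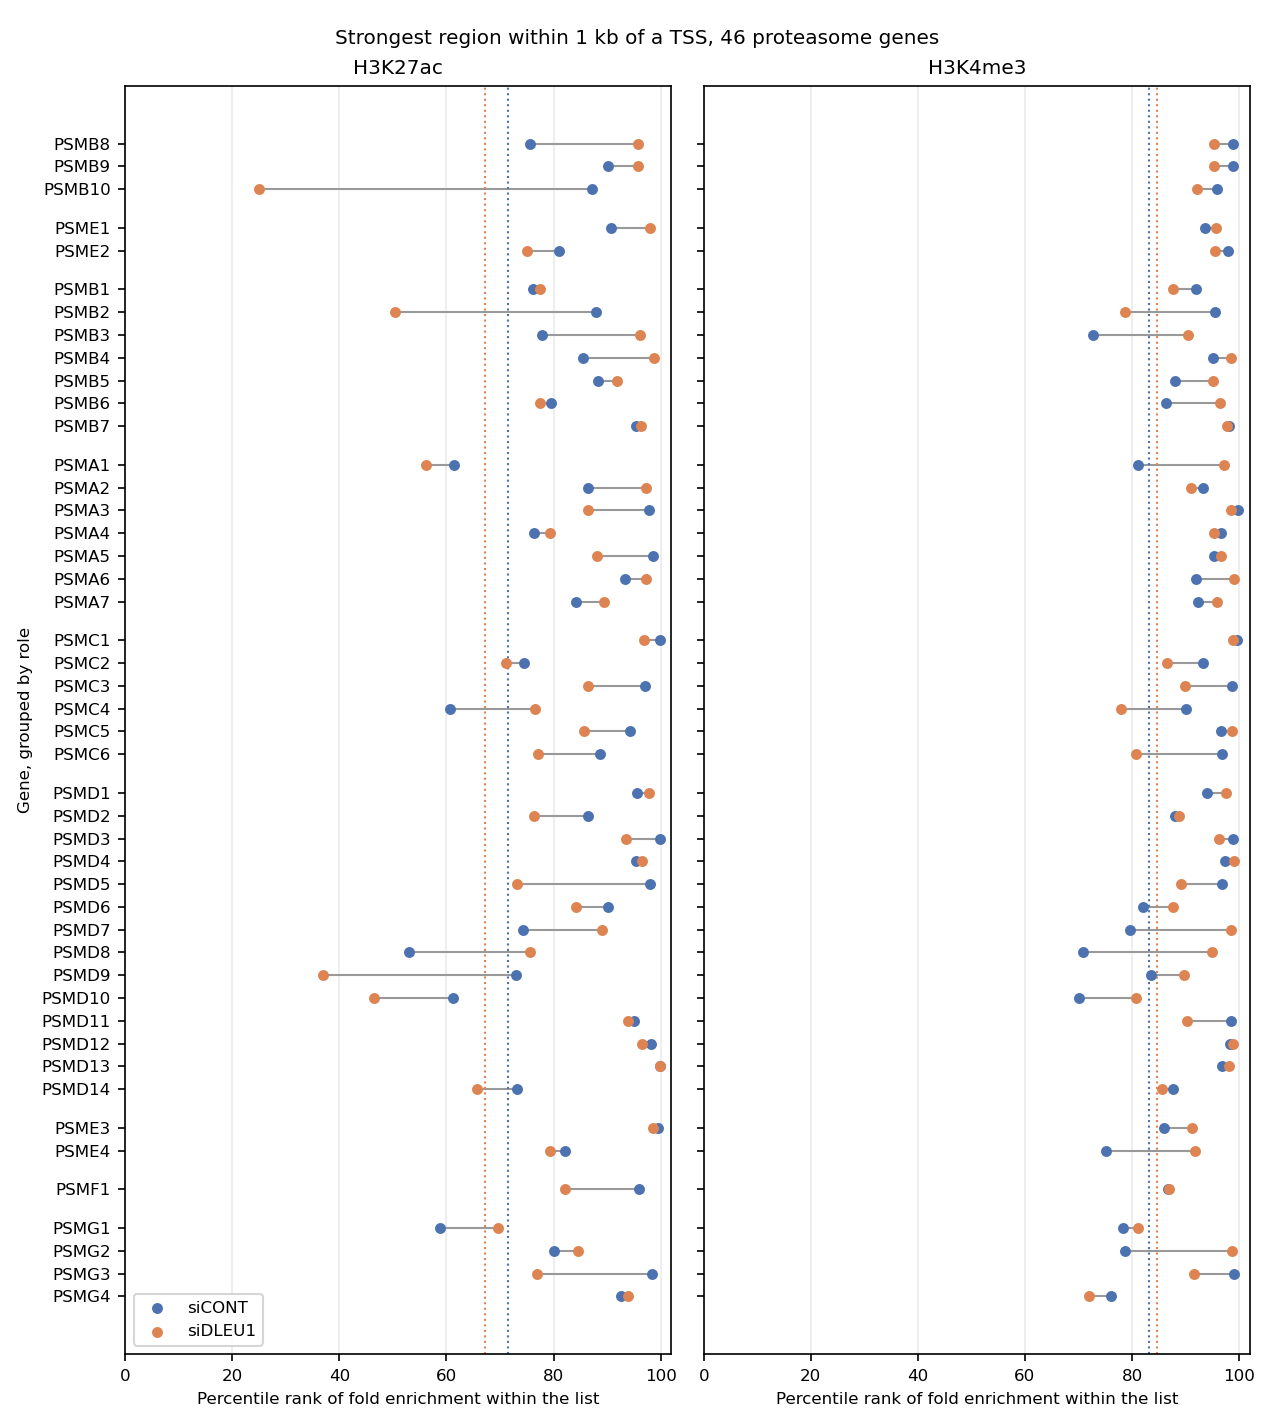
Percentile rank of fold enrichment within its list (x axis, percentile from 0 to 100) of the strongest region at each of 46 proteasome genes (y axis, grouped by role), for H3K27ac on the left and H3K4me3 on the right, with siCONT in blue and siDLEU1 in orange. Dotted lines are the medians of all marked protein-coding genes, at 71.4 and 67.2 for H3K27ac and 83.2 and 84.6 for H3K4me3. PSMB10 has the longest line, from 87.1 to 24.9.

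The strongest H3K27ac region covered the canonical TSS at 44 of 46 proteasome genes in siCONT cells (64.0% of all marked genes) and at 29 of 46 in siDLEU1 cells (42.9%). For H3K4me3 it covered the TSS at 37 of 46 genes (44.4%) and 39 of 46 genes (52.7%). The H3K27ac summits of constitutive genes lay at a median of 256 bp downstream of the TSS in siCONT and 251 bp in siDLEU1 cells, and the H3K4me3 summits at 206 bp and 196 bp. 13 of the 46 strongest H3K27ac regions in siCONT cells also covered the TSS of another protein-coding gene, 4 of the 5 at induced genes and 9 of the 41 at constitutive genes, beside 23.6% at all marked genes. A value at a promoter shared in this way belongs to the region and not to either gene alone. The strongest regions of the 2 libraries did not overlap at 2 genes for H3K27ac (PSMB9 and PSMC2) and at 4 for H3K4me3 (PSMB3, PSMC2, PSME3 and PSMG2). Their changes thus set different places side by side. The share over all genes was not computed, so these counts are not a trait of the proteasome genes.

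Among the induced genes, the percentile of H3K27ac fell by 10 points or more at 1 gene, rose by as much at 1 gene and moved by less at 3 genes. Over all genes marked in siCONT cells, 36.1% fell and 16.8% rose by that amount. By any amount, 2 of the 5 were lower in siDLEU1 cells, beside 62.4% of all marked genes. The median change of the induced genes was 5.65 points, against -1.70 for the constitutive genes and -4.32 for all marked genes. That median is the value of PSMB9, taken between its own promoter in siCONT cells and the region at PSMB8 in siDLEU1 cells, and with 1 TSS per gene the medians were 0.796, -1.70 and -4.24. Whether the groups differ was not tested, since there was 1 library for each siRNA.

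PSMB8 encodes the subunit that replaces PSMB5. It lies in the MHC class II part of chromosome 6 (ENSG00000204264, chr6:32808494-32812456, minus strand), and its H3K27ac region, chr6:32811186-32812417 in siCONT cells, spanned the first of 6 exons, the promoter and part of the first intron. Its percentile was 75.6 in siCONT and 95.7 in siDLEU1 cells, a rise of 20.2 points. The fragments at the summit were 140 and 119, so that the count itself was not higher in siDLEU1 cells. The fold is the pileup, which is the fragments scaled by a factor of the library, plus 1, over the local background from the control library plus 1. That background was 1.12 in siCONT and 0.493 in siDLEU1 cells, so that the divisors were 2.12 and 1.49. Ranked by fragments, PSMB8 moved by 2.48 points.

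PSMB9, which replaces PSMB6, shares a bidirectional promoter with TAP1, a subunit of the peptide transporter of antigen presentation. The region there, chr6:32820268-32822628 in siCONT cells, covered the first of 6 exons of PSMB9, and its percentile was 90.1 in siCONT and 90.9 in siDLEU1 cells. Its summit held 168 and 121 fragments, a ratio of 0.720 with a 95% interval of 0.565 to 0.915. Across genes the median ratio was 0.795, so that the interval included what was typical of these libraries. PSMB9 also has an annotated TSS beside PSMB8, and with that TSS its strongest siDLEU1 region was the one at PSMB8, at percentile 95.7.

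PSMB10, which replaces PSMB7, had the largest fall of any proteasome gene in H3K27ac percentile. It ranked at 87.1 in siCONT and 24.9 in siDLEU1 cells, with 118 and 83 fragments at the summit. The local background was 0.497 in siCONT and 2.0 in siDLEU1 cells. The fragment ratio was 0.703, with an interval of 0.525 to 0.939 that included the median of all genes, and ranked by fragments PSMB10 moved from 77.7 to 65.1. Its regions, chr16:67969747-67971054 in siCONT and chr16:67969772-67970890 in siDLEU1 cells, covered the TSS and exons 1 to 4 of 8 in both.

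PSME1 and PSME2 encode the alpha and beta subunits of PA28 and lie near each other on chromosome 14. PSME1 ranked at 90.8 in siCONT and 98.1 in siDLEU1 cells for H3K27ac, with 140 and 131 fragments. In siCONT cells a smaller region upstream of PSME1, at -578 to -235 bp from the TSS, held 54 H3K27ac fragments, and a region at nearly the same place held 50 H3K4me3 fragments. No region was called there for either mark in siDLEU1 cells. PSME2 ranked at 81.0 in siCONT and 74.99 in siDLEU1 cells, in regions upstream of its TSS that also cover a TSS of RNF31, a subunit of a linear ubiquitin ligase. These ranks are of different summits, at -1282 bp in siCONT cells (1577 bp wide, 143 fragments) and -488 bp in siDLEU1 cells (444 bp wide, 112 fragments). Another siDLEU1 region held 148 fragments, and ranked by fragments PSME2 rose by 8.87 points. Over the TSS of PSME2 itself the H3K27ac region held 117 fragments in siCONT and 104 in siDLEU1 cells.

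**Figure D2:**
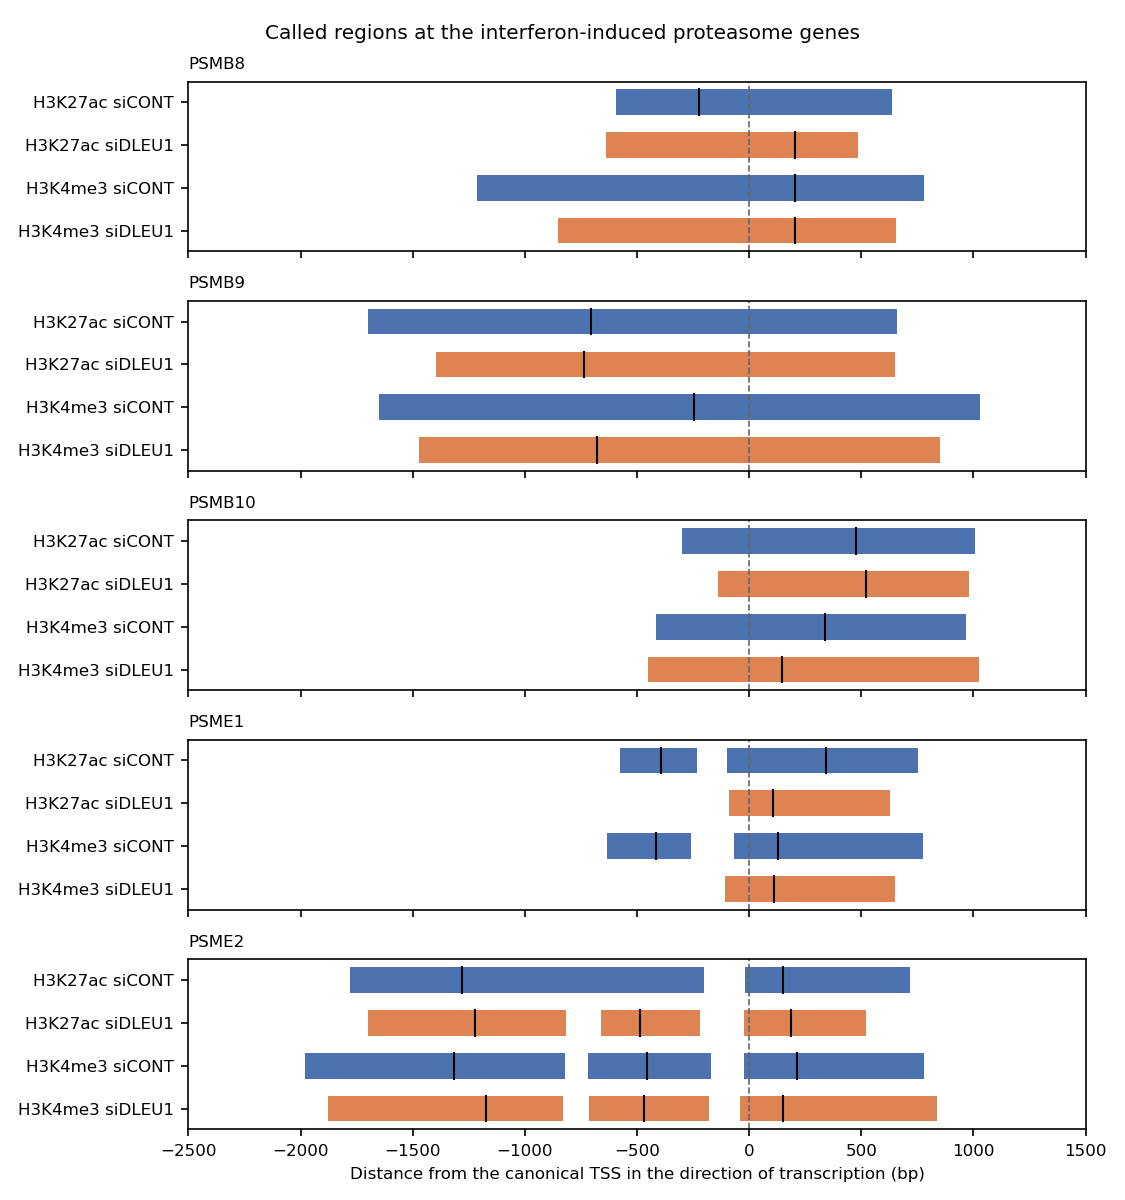
Called regions (bars) and their summits (black ticks) for both marks and both siRNAs at the interferon-induced genes, by distance in bp from the canonical TSS (x axis, dashed line at 0, positive in the direction of transcription). The upstream regions of PSME1 are drawn in siCONT cells alone, and the wide upstream H3K27ac region of PSME2 is in separate pieces in siDLEU1 cells. The region of PSMB9 near PSMB8 lies outside the axis.

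For H3K4me3 none of the 5 induced genes moved by 10 points or more, where 18.5% of genes marked in siCONT cells fell and 18.6% rose by that amount. Their median change was -3.56 points, and 1.32 for the constitutive genes. The -3.56 is the region at PSMB8, which stands for PSMB9 too. At its own promoter PSMB9 changed by 3.54, and with 1 TSS per gene the medians were -2.48 and 0.86. The fragment counts differed more among the induced genes than the percentiles did. At PSMB8 the H3K4me3 summit held 206 fragments in siCONT and 121 in siDLEU1 cells. The ratio was 0.587, with a 95% interval of 0.465 to 0.739 that lay below the median ratio of 0.915 over all genes. At the promoter of PSMB9 and TAP1 the counts were 204 and 124, a ratio of 0.608 with an interval of 0.482 to 0.764. Both regions of this stretch of chromosome 6 thus had a ratio whose whole interval lay below that median, as did 10.9% of the genes compared. The local background was lower in siDLEU1 cells as well, 0.80 and 0.521 at PSMB8 and 2.0 and 0.744 at PSMB9 and TAP1. The fold percentile was 98.8 in siCONT and 95.3 in siDLEU1 cells at PSMB8, and 89.4 and 92.9 at PSMB9 and TAP1.

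At the other 3 induced genes the interval of the H3K4me3 ratio included the median of all genes. PSMB10 had 136 fragments in siCONT and 133 in siDLEU1 cells, a ratio of 0.978 with an interval of 0.764 to 1.25. PSME1 had 133 and 125 fragments, a ratio of 0.940 with an interval of 0.730 to 1.21. PSME2 had 208 and 162, a ratio of 0.779 with an interval of 0.630 to 0.961, in an upstream region that covers a TSS of RNF31. Over the TSS of PSME2 itself the counts were 133 and 144, a ratio of 1.08 with an interval of 0.849 to 1.38. No interval of an H3K27ac ratio lay below the median at an induced gene, and that of PSME2 lay above it (ratio 1.03, 0.817 to 1.31). Over all genes 2.05% lay below and 3.3% above for H3K27ac. The PSME2 ratio sets the far upstream region of 148 fragments in siDLEU1 cells, which covers a TSS of RNF31, against 143 in siCONT cells. The intervals are exact for the ratio of a pair of Poisson counts and cover counting error alone.

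**Figure D3:**
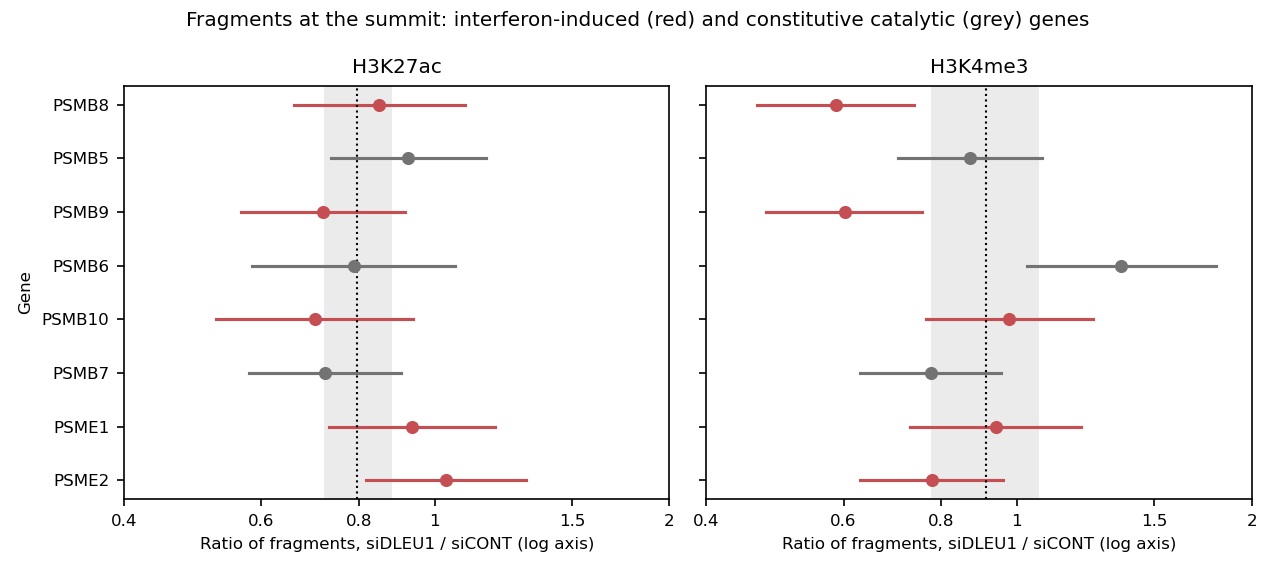
Ratio of fragments at the summit, siDLEU1 over siCONT (x axis, log scale, points), with 95% counting intervals (lines), for the induced genes in red and the constitutive catalytic genes in grey, at the region with most fragments in each library. The dotted line is the median over all genes (0.795 for H3K27ac, 0.915 for H3K4me3) and the grey band spans the quartiles. The H3K4me3 intervals of PSMB8 and PSMB9 lie to the left of the line, and that of PSMB6 to its right. The siCONT summit used for PSMB9 is in the region at PSMB8 for H3K4me3.

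The constitutive catalytic counterparts moved by less than 10 points for H3K27ac. PSMB5, the chymotrypsin-like subunit, ranked at 88.4 in siCONT and 91.8 in siDLEU1 cells, PSMB6, the caspase-like subunit, at 79.5 and 77.4, and PSMB7, the trypsin-like subunit, at 95.4 and 96.3. For H3K4me3 PSMB5 ranked at 88.0 and 95.1, PSMB6 at 86.3 and 96.4, and PSMB7 at 98.2 and 97.7. PSMB6 had 92 H3K4me3 fragments in siCONT and 125 in siDLEU1 cells, a ratio of 1.36 with an interval of 1.03 to 1.80, above the median of all genes as were 10.3% of genes. The induced subunit and its counterpart thus had H3K4me3 ratios of 0.587 and 0.871 for PSMB8 and PSMB5, 0.608 and 1.36 for PSMB9 (at the promoter shared with TAP1) and PSMB6, and 0.978 and 0.776 for PSMB10 and PSMB7. The induced member was the lower of its pair at PSMB8 and PSMB9 and the higher at PSMB10. The H3K4me3 intervals of PSMB8 and PSMB5 overlapped, as did those of PSMB10 and PSMB7. For H3K27ac the ratios were 0.850 and 0.926, 0.720 and 0.7885, and 0.703 and 0.724 for the same pairs. The induced member was the lower in each, with intervals that overlapped.

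Of the 41 constitutive genes, 11 fell and 7 rose by 10 points or more in H3K27ac percentile, and 23 moved by less. The 26.8% that fell compare with 36.1% of all marked genes, or with 34.7% (and 15.5% that rose) of those that ranked at 50 or above in siCONT cells, as all 41 did. By any amount 23 of the 41 were lower. For H3K4me3, 3 fell, 8 rose and 30 moved by less, where 17.1% fell and 15.2% rose among genes of that rank. By any amount 17 of 41 were lower, beside 47.5% of all marked genes.

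The alpha subunits, PSMA1 to PSMA7, form the outer rings that gate the core. Their median change was 2.89 points for H3K27ac (2 fell and 1 rose by 10 or more) and 1.36 for H3K4me3 (0 fell and 1 rose). Over all marked genes 36.1% fell and 16.8% rose for H3K27ac, and 18.5% and 18.6% for H3K4me3. PSMA3, named after its values were seen, was the only constitutive gene whose H3K27ac fragment ratio lay below the median of all genes with its interval, at 211 fragments in siCONT and 132 in siDLEU1 cells (ratio 0.626, 0.499 to 0.781). It also had the most H3K4me3 fragments of the proteasome genes, 291 in siCONT and 207 in siDLEU1 cells, and a ratio below the median there (0.711, 0.592 to 0.853). Over all genes the whole interval lay below at 2.05% for H3K27ac and at 10.9% for H3K4me3.

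Of the 7 constitutive beta subunits, 1 fell and 2 rose by 10 points or more for each mark. The shares of all marked genes were 36.1% and 16.8% for H3K27ac and 18.5% and 18.6% for H3K4me3. PSMB2, a non-catalytic subunit, had the largest fall of the constitutive genes in both marks by the strongest region, from 88.0 to 50.5 for H3K27ac and from 95.6 to 78.6 for H3K4me3. Its H3K27ac summit held 161 fragments in siCONT and 123 in siDLEU1 cells, and its H3K4me3 summit 176 and 133. Its local background was 1.0 in siCONT and 2.0 in siDLEU1 cells for both marks, and ranked by fragments it moved by -2.16 and -2.97 points. PSMB3 and PSMB4, also non-catalytic, rose by 18.3 and 13.4 points for H3K27ac. PSMB3 held 136 H3K27ac fragments in siCONT and 116 in siDLEU1 cells, and its background was 1.0 and 0.439.

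The ATPases PSMC1 to PSMC6 form the ring that threads substrates into the core. Their median change was -6.02 points for H3K27ac and -7.75 for H3K4me3, and by fragments 2.25 and -0.24. PSMC4 rose by 16.0 points for H3K27ac and fell by 12.2 for H3K4me3. Its counts were 90 H3K27ac fragments in siCONT and 81 in siDLEU1 cells, and 105 and 86 H3K4me3 fragments. The ratios were 0.90 and 0.819, beside medians of 0.795 and 0.915 over all genes. The first thus lay above its median and the second below, with intervals that included the median. Ranked by fragments PSMC4 moved by 3.11 points for H3K27ac and -2.23 for H3K4me3. Its background went from 0.748 to 0.439 beside the first mark and from 0.532 to 1.0 beside the second. PSMC6 fell by 16.2 points for H3K4me3, with a background of 1.0 and 2.0 and with 191 and 141 fragments.

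Among the 14 non-ATPase genes of the regulatory particle and its assembly, 4 fell and 2 rose by 10 points or more for H3K27ac (median -3.87). For H3K4me3, 0 fell and 3 rose (median 1.55). Beside these stand 36.1% and 16.8% of all marked genes for H3K27ac and 18.5% and 18.6% for H3K4me3. PSMD9, PSMD5 and PSMD10 encode chaperones that help assemble the base of the particle. PSMD9 ranked at 73.0 in siCONT and 37 in siDLEU1 cells, with 98 and 66 H3K27ac fragments, and it was lower by fragments too, by 17.5 points. PSMD5 fell by 24.9 points with 227 and 167 fragments and moved by -0.41 by fragments. PSMD10 ranked at 61.2 and 46.5, with a background of 0.561 and 0.528, so here the control background was not higher. That region held 81 and 57 fragments and stood at percentile 53.9 and 37.7 by fragments. Another region upstream of PSMD10 held 82 and 72 fragments, and with it the gene's rank by fragments moved by -0.89 points.

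PSMD8, a lid subunit, had the largest rise of the constitutive genes for both marks by the strongest region. It ranked at 53.0 in siCONT and 75.5 in siDLEU1 cells for H3K27ac and at 70.8 and 95.02 for H3K4me3. The H3K27ac fragments were 90 and 80, and the H3K4me3 fragments 80 and 115. The H3K4me3 ratio of 1.44 (1.07 to 1.94) was higher than that of 96.6% of all genes, and by fragments the gene rose by 16.6 points, so that a higher H3K4me3 value was present with and without the control. PSMD7, another lid subunit, rose by 14.7 points for H3K27ac and 18.9 for H3K4me3. Its H3K27ac fragments were 129 and 98 and its H3K4me3 fragments 152 and 151. By fragments PSMD7 moved by -5.42 points for H3K27ac, the opposite direction.

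The remaining regulators numbered 7. PSME3 and PSME4, which encode the nuclear activators PA28 gamma and PA200, changed by -1.01 and -2.83 points for H3K27ac and by 5.27 and 16.5 for H3K4me3. The 5.27 of PSME3 sets its promoter in siCONT cells against a region beside another of its TSSs in siDLEU1 cells, and at its promoter the H3K4me3 percentile was 85.9 and 58.6, a change of -27.3. The fragments there were 91 and 113, and the background 0.532 and 3.0. PSMF1, an inhibitor of the core, changed by -13.7 and 0.18. The chaperones of core assembly, PSMG1 to PSMG4, had median changes of 2.89 and -0.53. PSMG3 fell by 21.4 points for H3K27ac, with 162 fragments in siCONT and 115 in siDLEU1 cells and a background of 0.497 and 1.0. PSMG2 rose by 19.9 points for H3K4me3, from 78.7 to 98.7, where the siCONT region lay beside a distant TSS and the siDLEU1 region at the promoter. At the promoter in both, the percentile went from 60.3 to 98.7, a change of 38.4, with 131 and 153 fragments and a background of 3.0 and 0.464. With 1 TSS per gene the largest H3K4me3 fall and rise of the constitutive genes were thus those of PSME3 and PSMG2. PSMG4, whose promoter held the same ISRE letters as the induced genes, had 146 H3K27ac fragments in siCONT and 152 in siDLEU1 cells. The interval of its ratio (1.04, 0.824 to 1.32) was the only one of a constitutive gene to lie wholly above the median for that mark. Over all genes 3.3% lay above in that way.

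Changes in percentile by fold went with the local background of the control. The background is in the divisor of the fold, so that this is largely built in and is not a result about these genes. The share of all genes with a higher or lower background was not computed. Of the 11 constitutive genes that fell for H3K27ac, 9 had a higher background in siDLEU1 cells, by a median ratio of 1.76, and all 7 that rose had a lower one, by a median ratio of 0.439. Of the other 2 that fell, PSMA3 had the same background in both and PSMD10 a ratio of 0.941. For H3K4me3, the 3 that fell all had a higher background, by a median ratio of 2.0, and the 8 that rose all had a lower one, by 0.464. The background is a small number, often near 0.5, 1.0 or 2.0 at the members. The same value recurred at many of them, such as 0.497 (siCONT) and 0.439 (siDLEU1) for H3K27ac, or 1.0 and 2.0. A change such as that of PSMB2, from 1.0 to 2.0, is thus a step between such values, and what a step stands for was not tested. With 1 added, the background is the divisor of the fold. The divisors thus differed by less, by median ratios of 1.28 at those 9 genes and 0.719 at those 7. Ranking by fragments alone leaves the control out, though it can also take another region of a gene. Then 3 constitutive genes fell by 10 points or more for H3K27ac in place of 11 and 1 rose in place of 7, where 30.6% of all marked genes fell and 5.1% rose. For H3K4me3 0 fell in place of 3 and 3 rose in place of 8, where 13.3% fell and 14.0% rose. The gene that rose for H3K27ac was PSMA7, by 11.8 points, and those that rose for H3K4me3 were PSMB6 (12.9), PSMD8 (16.6) and PSME3 (11.0). The 3 that fell were PSMB1, by 21.5 points, PSMD9, by 17.5 points, and PSMD14, by 10.9 points, of which PSMB1 and PSMD14, like PSMA7, are named after their values were seen. PSMB1, a core beta subunit, had 133 fragments in siCONT and 82 in siDLEU1 cells, a background of 1.0 and 0.439, and fold percentiles of 76.2 and 77.4.

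**Figure D4:**
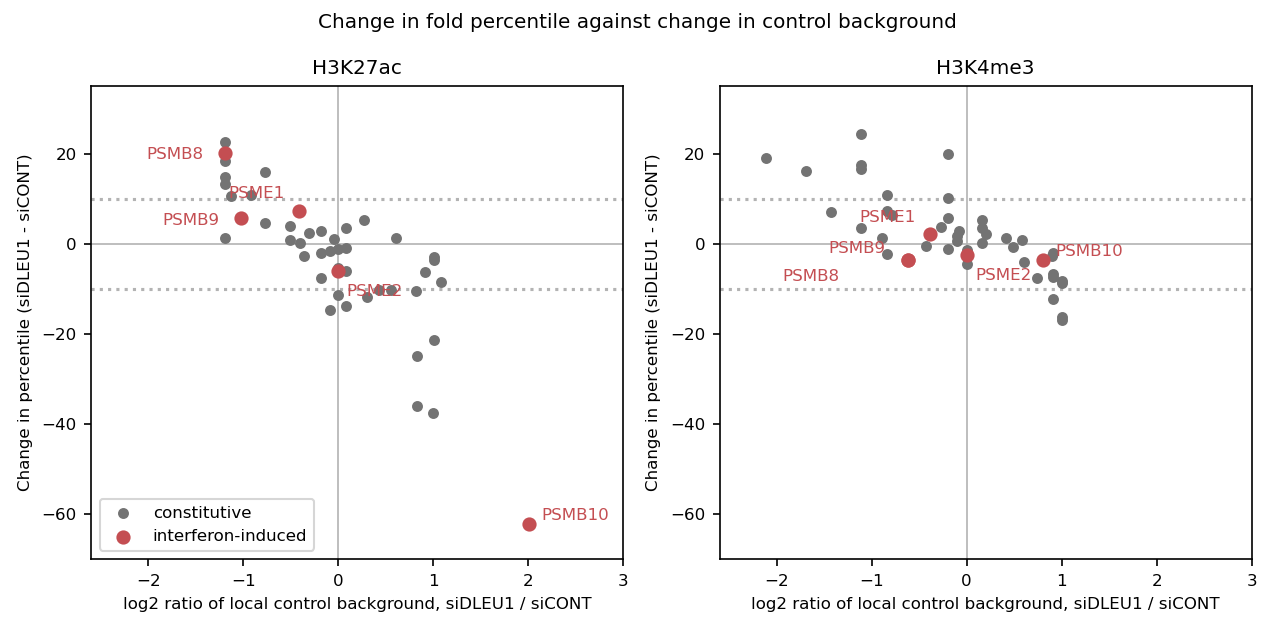
Change in fold percentile, siDLEU1 minus siCONT (y axis, points), against the log2 ratio of the local control background (x axis), for 41 constitutive genes in grey and 5 induced genes in red. Dotted lines mark 10 points either way. Genes with a higher background in siDLEU1 cells, such as PSMB10 for H3K27ac, sit mostly below 0, and those with a lower one, such as PSMB8, mostly above. PSMB8 and PSMB9 share 1 point for H3K4me3.

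**Figure D5:**
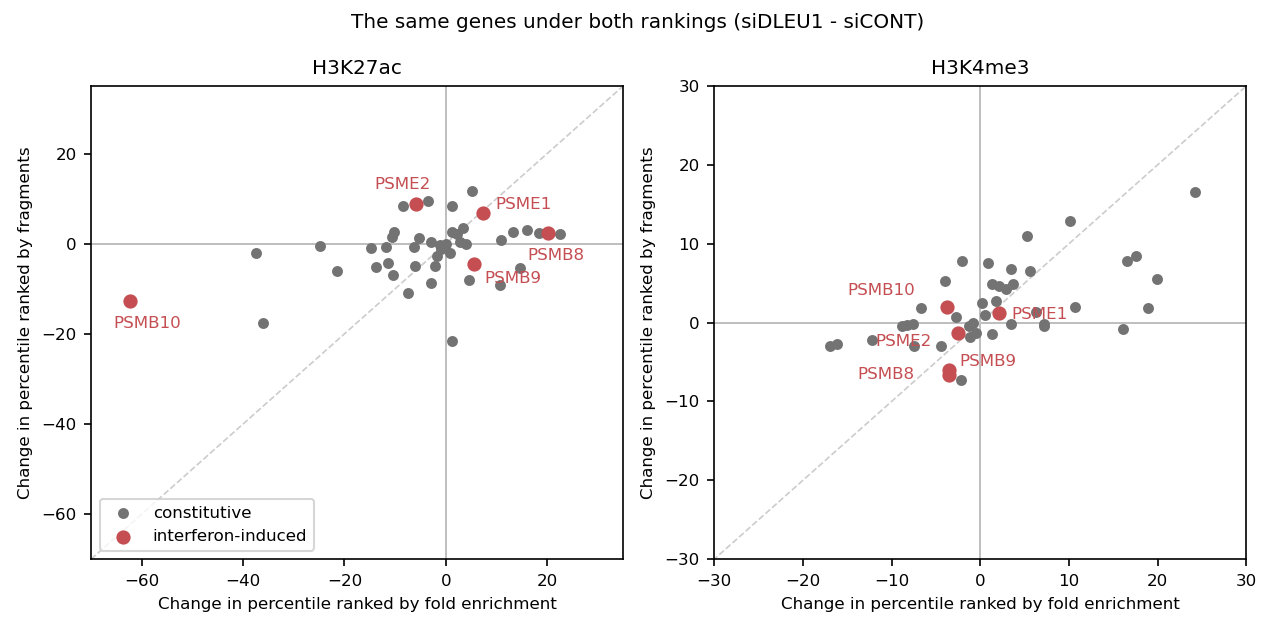
Change in percentile ranked by fold enrichment (x axis, points) and ranked by recovered fragments (y axis, points) for the same 46 genes, siDLEU1 minus siCONT, with the dashed line where both are equal. For H3K27ac PSMB10 sits at -62.2 by fold and -12.6 by fragments, and PSMB8 at 20.2 and 2.48.

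Set against the fragment ratio of all genes, the constitutive genes stood at the general level. Their median ratio was 0.80 for H3K27ac and 0.941 for H3K4me3, where all genes had 0.795 and 0.915. Of the 41 genes, 1 lay below and 1 above with the whole interval for H3K27ac, beside 2.05% and 3.3% of all genes. For H3K4me3, 2 lay below (PSMA2 and PSMA3) and 5 above (PSMB6, PSMC5, PSMD8, PSME3 and PSMG2), beside 10.9% and 10.3%. The PSMA2 counts, 156 and 103, are of different regions, its own in siCONT cells and that at MRPL32 in siDLEU1 cells. Over the canonical TSS, 3 of 35 genes lay below (PSMA2, PSMA3 and PSMC6) and 2 above (PSMB3 and PSMB6) for H3K4me3, beside 683 and 630 of 5950 genes. The median ratio of the induced genes was 0.850 and 0.779. The 0.779 is the upstream region of PSME2, and over the canonical TSSs the median of the 5 was 0.850 and 0.940, beside 0.788 and 0.946 at all genes with a region there in both libraries. The 78 cytosolic ribosomal protein genes, a housekeeping set, had 0.796 and 1.12. Their median percentiles in siCONT and siDLEU1 cells were 82.5 and 77.4 for H3K27ac and 87.8 and 94.2 for H3K4me3.

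The marked stretches were narrower in siDLEU1 cells. The strongest H3K27ac region was narrower at 37 of 41 constitutive and at 5 of 5 induced genes, and its median width went from 1427 to 938 bp and from 1308 to 1119 bp. Over all genes it was narrower at 90.0%, and the median width went from 1109 to 795 bp. The strongest H3K4me3 region was narrower at 31 of 41 and at 4 of 5 genes, beside 61.9% of all genes. The H3K27ac bases within the TSS windows had a median ratio, siDLEU1 over siCONT, of 0.818 at constitutive and 0.856 at induced genes, beside 0.790 at all genes, and were fewer at 37 of 41 and at 5 of 5 genes, beside 94.0% of all marked genes. For H3K4me3 the median ratios were 0.894, 0.836 and 0.926, and bases were fewer at 31 of 41 and 4 of 5 genes, beside 67.1%. PSME1 had the lowest ratios of the induced genes, 0.603 for H3K27ac and 0.623 for H3K4me3, with the upstream regions that were not called in siDLEU1 cells.

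Of the symbols set apart, PSMA8 and PSMB11 had no region of either mark in either siRNA, though PSMB11 lies close to PSMB5 on chromosome 14. PSMC3IP, a factor of meiotic recombination, ranked at 70.2 in siCONT and 59.9 in siDLEU1 cells for H3K27ac and at 91.6 and 91.5 for H3K4me3. PSME3IP1, which binds the product of PSME3, ranked at 82.0 and 88.5, and at 87.3 and 92.1.

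A list of 36 other genes of the pathway, from ubiquitin and its activating enzymes to peptide transport, was marked in full. For H3K27ac 17 of them (47.2%) fell and 8 (22.2%) rose by 10 points or more, beside 36.1% and 16.8% of all marked genes, with a median change of -8.15. For H3K4me3 3 (8.33%) fell and 5 (13.9%) rose, beside 18.5% and 18.6%, with a median of 0.89. Among the transcription factors of proteasome genes, NFE2L1, which raises them when the proteasome is inhibited, changed by -10.2 points for H3K27ac and by 2.63 for H3K4me3, and NFE2L2, the antioxidant factor, by -1.02 and 1.43. POMP, the assembly chaperone of the core, changed by -18.7 and -3.75, and by fragments by -5.46 and 2.14. The largest falls for H3K27ac were those of ERAP2, a peptide-trimming protease of the endoplasmic reticulum (-45.3 points, by fragments -25.1), and UBQLN4, a shuttle for ubiquitinated proteins (-43.2, by fragments -13.2). The largest rises were those of ECPAS, a proteasome adaptor (33.6, by fragments -3.44 and with 1 TSS -22.6), TAP2 (22.1, by fragments 19.3) and UBA6, a ubiquitin-activating enzyme (18.4, by fragments -15.9).

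The transporter genes beside PSMB8 and PSMB9 went different ways. TAP2, the partner of TAP1, had 99 H3K27ac fragments in siCONT and 108 in siDLEU1 cells (ratio 1.09, 0.823 to 1.45) and 73 and 120 H3K4me3 fragments (ratio 1.64, 1.22 to 2.23), with both intervals above the median of all genes. The H3K4me3 ratio of TAP2 exceeded that of 98.8% of genes, whereas those of PSMB8 and of TAP1 exceeded 5.09% and 6.44%. All of these genes lie in the same stretch of the MHC class II region.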

How the data were processed

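Reads from an Ion Proton were aligned by the authors (bowtie2, hg19), and each library's peaks were called with MACS2, whose version and settings are not given in the sources used here. Which library MACS2 took as the control is not given there either. The deposited fold ratio was taken to be the summit's pileup over the local control background, each plus 1. The pileup is the number of fragments times a factor of the library (0.334 and 0.229 for H3K27ac in siCONT and siDLEU1, 0.252 and 0.301 for H3K4me3), solved for here, and the background is on that scaled pileup. The −log10 p and −log10 q are those of MACS2 as deposited. The deposited score (a display value) was not used. Start, end and summit positions are as deposited. The 2 input libraries were not analysed here, and the normal IgG named in the study's methods as a control was not used here.

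Regions on chromosomes 1 to 22 and X were assigned to GENCODE 44 genes (lifted to GRCh37) by an overlap of at least 1 bp with 1 kb either side of any TSS, with Python 3.11.15, pandas 2.3.3, numpy 2.4.6 and scipy 1.17.1. Fragments and background at each summit were solved from fold and −log10 p, and matched it within 0.001 in 100.0% of regions. On simulated data, tested on 5996 peaks, they were recovered exactly in 100.0%. A change of 10 percentile points was counted as a fall or rise. Ratios of fragments have exact (Clopper-Pearson) 95% intervals. No region ended past its chromosome, and promoters came from GRCh37. With 1 library per siRNA and mark there was no test. The members and lists were chosen with earlier results of these data known. Genes are named by a rule: the induced genes, their catalytic counterparts, the 5 largest falls and rises for H3K27ac and the 3 for H3K4me3 among constitutive genes, symbols set apart, and in the pathway NFE2L1, NFE2L2, POMP, TAP1, TAP2 and the 3 largest falls and rises, of which 1 is not reported here. Other genes were named after their values were seen. The fragment ratios, those at the region over the canonical TSS, summit positions and the shared ISRE letters were added after seeing the data.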

Additional observations from a re-analysis of the deposited data

How the results depend on the processing

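No paired analysis was possible because each siRNA and mark had 1 library, and for the same reason none could be left out. The median H3K27ac change of the induced genes (5.65 points) stayed above 0 throughout, at 6.30 with regions of −log10 q of at least 10, 7.30 with a window of 3 kb, 0.796 with 1 TSS per gene, 1.41 ranked by −log10 p, 2.48 ranked by fragments and 6.78 with equal numbers of regions. The count of induced genes that fell was 2 at the stricter q, and the covered ratio was 0.808 there and 0.859 with 1 TSS. For the constitutive genes the median (-1.70) was -4.43 at the stricter q, -0.41 by fragments and -0.68 with equal numbers, the count that fell (11) was 17 at the stricter q, 4 by −log10 p and 3 by fragments, and the covered ratio was 0.813 at the stricter q and 0.825 with 1 TSS. For H3K4me3 the induced median (-3.56) was -7.14 at the stricter q, -2.48 with 1 TSS, -2.15 by −log10 p and -1.35 by fragments, with a covered ratio of 0.819 in the 3 kb window and 0.925 with 1 TSS. The constitutive median (1.32) was 3.68 at the stricter q, 0.86 with 1 TSS and 1.84 by −log10 p, the count that fell (3) was 8 at the stricter q, 5 with 1 TSS, 0 by −log10 p and 0 by fragments, and the covered ratio was 0.877 at the stricter q, 0.846 in the 3 kb window and 0.921 with 1 TSS. Of all marked genes, 30.6% fell for H3K27ac and 13.3% for H3K4me3 by fragments, and 18.6% for H3K4me3 with 1 TSS. The share of all genes that fell at the stricter q or by −log10 p is not given here. The counts under those settings are thus not a trait of the proteasome genes. Of the H3K27ac changes of 10 points or more of genes named by rule, that of ECPAS reversed with 1 TSS (-22.6) and by fragments (-3.44), those of PSMD7 (-5.42) and UBA6 (-15.9) by fragments, and that of UBQLN4 in the 3 kb window (7.59). Over all 46 proteasome genes, 14 H3K27ac and 10 H3K4me3 changes had the other sign by fragments, among them PSME2 (-5.98, by fragments 8.87 and in the 3 kb window 16.7), PSMB9 (5.65, by fragments -4.49), PSMG1 (10.7, by fragments -9.21), PSMC3 and PSMD2 for H3K27ac and PSMA1 for H3K4me3. With 1 TSS the H3K4me3 changes of PSMB9 (3.54) and PSME3 (-27.3) had the other sign. The share of all genes whose change took the other sign was not computed, so these counts are not a trait of the proteasome genes. The median H3K4me3 fragment ratio of the induced genes (0.779) was 0.940 over the canonical TSS. Over the named genes 5 values from changes of 10 points or more reversed, as listed above. Smaller changes that took the other sign, such as that of PSMB9, were not counted as reversed. Of the other values, 231 moved by more than the 95% binomial interval of a percentile over the list and 148 did not. That interval rests on the number of regions in a list. It leaves out the counting error at a gene's summit and in the control, so these counts do not measure how reliable a gene's rank is. The cause of a move was not tested. The intervals of the fragment ratios included the median of all genes at 39 of 41 constitutive genes for H3K27ac and at 34 of 41 for H3K4me3, where over all genes 2.05% lay below and 3.3% above for the first mark and 10.9% and 10.3% for the second. At counts such as those of PSMB10 (118 and 83) the interval spans 0.525 to 0.939, and smaller differences were not detectable at this depth.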
